A study of Mus musculus with 6 samples.

Results

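The genes described here encode the subunits of the proteasome, the barrel-shaped protease that degrades ubiquitin-tagged proteins. They are all symbols formed by Psma, Psmb, Psmc or Psmd and a number, 39 of the 23574 genes in the count tables, and the rule that picks them reads the gene name alone. The RNA came from C57BL/6 haematopoietic stem cells, sorted for Sca-1 and c-Kit and against lineage markers, CD34 and Flt3. One group was labelled HLF KO and lacks Hlf, a DNA-binding protein with a basic leucine zipper, and the other was wild type, described as littermates. Each genotype had 3 libraries, each from 3000 freshly isolated cells. The sources used here do not give the part of Hlf removed, the cells in which it is removed, or the age and sex of the mice. They do not say whether a library came from 1 animal or several either, and the p-values cover only the scatter among libraries, which could be technical.

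The 26S proteasome is built from a 20S core capped by 19S regulatory particles. Outer rings of alpha subunits (Psma genes) gate the core, and inner rings of beta subunits (Psmb genes) lie between them. Psmb5, Psmb6 and Psmb7 carry the constitutive proteolytic sites. Blood cells also make the inducible subunits Psmb8, Psmb9 and Psmb10, which take the places of Psmb5, Psmb6 and Psmb7 in the immunoproteasome, a form known for producing peptides for antigen presentation and induced by interferon. In the regulatory particle, ATPases (Psmc genes) unfold the substrate, and non-ATPase subunits (Psmd genes) bind and remove ubiquitin. Haematopoietic stem cells are known for a low rate of protein synthesis and a strong dependence on protein quality control.

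Of the 39 genes, 35 passed the filter on low counts and could be compared between genotypes. Psmb11, a subunit known from thymic epithelium, had 10 counts over all 6 libraries. Psmd2 had 3 counts, and Psmd4 and Psmd10 had 0. Those 3 genes are the only subunit genes with 2 listed transcripts, and in these files genes with several transcripts had a median of 3 counts in total, against 79 for genes with 1. Their near absence is therefore not read as low expression. The 11 Psmd subunits of the regulatory particle comprised 9 that were compared, and the 3 assembly chaperones of the particle's base with Psmd names comprised 2, Psmd5 and Psmd9.

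Upstream sequence is shown for 4 members as examples. They are Psma1 and Psmc1, among the 8 members whose genotypes did not overlap, and the exchange pair Psmb5 and Psmb8. Each run is the 200 bases before the start site in RefSeq (GRCm38.p6), written 5′ to 3′ on the gene's strand, and capitals mark a motif match.
Psma1, chr7:114276117-114276316, minus strand: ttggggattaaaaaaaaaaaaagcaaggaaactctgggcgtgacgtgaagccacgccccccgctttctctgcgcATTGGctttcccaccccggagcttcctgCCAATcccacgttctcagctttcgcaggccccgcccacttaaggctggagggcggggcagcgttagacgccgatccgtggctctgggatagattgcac
Psmc1, chr12:100110002-100110201, plus strand: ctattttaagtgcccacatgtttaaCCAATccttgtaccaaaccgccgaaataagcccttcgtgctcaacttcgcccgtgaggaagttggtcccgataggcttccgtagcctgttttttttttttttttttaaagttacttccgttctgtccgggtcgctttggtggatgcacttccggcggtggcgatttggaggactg
Psmb5, chr14:54617996-54618195, minus strand: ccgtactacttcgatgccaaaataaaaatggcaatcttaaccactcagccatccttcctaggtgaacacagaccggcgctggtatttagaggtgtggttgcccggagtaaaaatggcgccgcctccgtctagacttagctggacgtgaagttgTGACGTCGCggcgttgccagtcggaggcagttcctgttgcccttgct
Psmb8, chr17:34197995-34198194, plus strand: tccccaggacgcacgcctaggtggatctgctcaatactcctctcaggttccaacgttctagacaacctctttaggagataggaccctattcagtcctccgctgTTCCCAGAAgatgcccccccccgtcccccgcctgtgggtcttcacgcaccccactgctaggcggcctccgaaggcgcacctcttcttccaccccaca
The searched motifs were the CCAAT box (CCAAT), the core of the antioxidant response element (TGACNNNGC), the gamma-activated site of STAT factors (TTCNNNGAA) and the interferon-stimulated response element (2 copies of GAAA, 2 bases apart), on both strands, with no overlap between the marked matches. Capitals show CCAAT on both strands in Psma1, CCAAT in Psmc1, the antioxidant core in Psmb5 and the gamma-activated site in Psmb8. Promoter entries were found for 32 members, and the first listed window of 250 bases before the start was searched. CCAAT was present in 13 of these 32 (40.6%) and in 34.5% of 27025 promoters. The antioxidant core was present in 5 (15.6%, against 10.1%), namely Psmb5, Psmb6, Psmc6, Psmd9 and Psmd12. The gamma-activated site was present in 1 member, Psmb8 (3.12%, against 7.18%). The interferon element was present in 3 (9.38%, against 3.04%), namely Psmb3, Psmd4 and Psmd9, and in none of the inducible subunits Psmb8, Psmb9 and Psmb10. Each printed run holds a match, whereas Psmd6, whose genotypes also did not overlap, had none in its window. These matches are letters in a window, and no binding was measured.

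The libraries held 8346335 to 9902102 counts in wild type and 10182464 to 11998296 in HLF KO, so each knockout library was deeper than each wild-type one. Hlf stood at 1114.2 to 1662.2 CPM (counts scaled to library size, with edgeR's TMM factors) in wild type and 28.3 to 37.6 CPM in HLF KO, a log2 difference of -5.33 (SE 0.26, edgeR adjusted p = 1.9e-06). Wild-type library 1 had the fewest genes with a count, 10796 against 11341 to 12331 in the others. Wild-type library 3 and knockout library 3 were rich in Xist. Of 11 tested stem cell markers, besides Hlf, Procr, Mecom and Tek had lower values and Ctnnal1 higher ones in each knockout library. In bulk RNA, fewer cells of a type and less RNA per cell cannot be told apart.

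Proteasome subunits tended to have higher values in the knockout, but none passed the test. Of the 35 compared, 30 had a positive log2 fold change of HLF KO over wild type and 5 a negative one, where 47.2% of all 10204 genes tested were positive, and 48.2% of the abundant ones (mean log2 CPM 6 or more). Their median was 0.33, against -0.05 for all genes. By edgeR's quasi-likelihood test with Benjamini-Hochberg adjustment over all genes, 0 members were called (smallest adjusted p = 0.625), as were 0.0098% of all genes, which is Hlf alone. At an unadjusted edgeR p under 0.05, 3 members had higher values (8.57%, against 2.63% of all genes) and 0 had lower ones (against 4.65%). DESeq2 called 0 members (smallest adjusted p = 0.328) and 1.26% of the 9517 genes to which it gave an adjusted p. By limma-voom 0 members were called (smallest adjusted p = 0.594), and 0.0098% of all genes. At an unadjusted p under 0.05 in either direction, DESeq2 had 1 of 35 members, against 1049 of 10204 genes. For limma-voom it was 1 of 35, against 828 of 10204. By these 2 methods the members' share was below that of all genes. The values of all knockout libraries lay above all wild-type values for 8 members (22.9%), against 7.52% of all genes and 9.02% of the abundant ones, and below them for 0, against 6.85%.

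**Figure D1:**
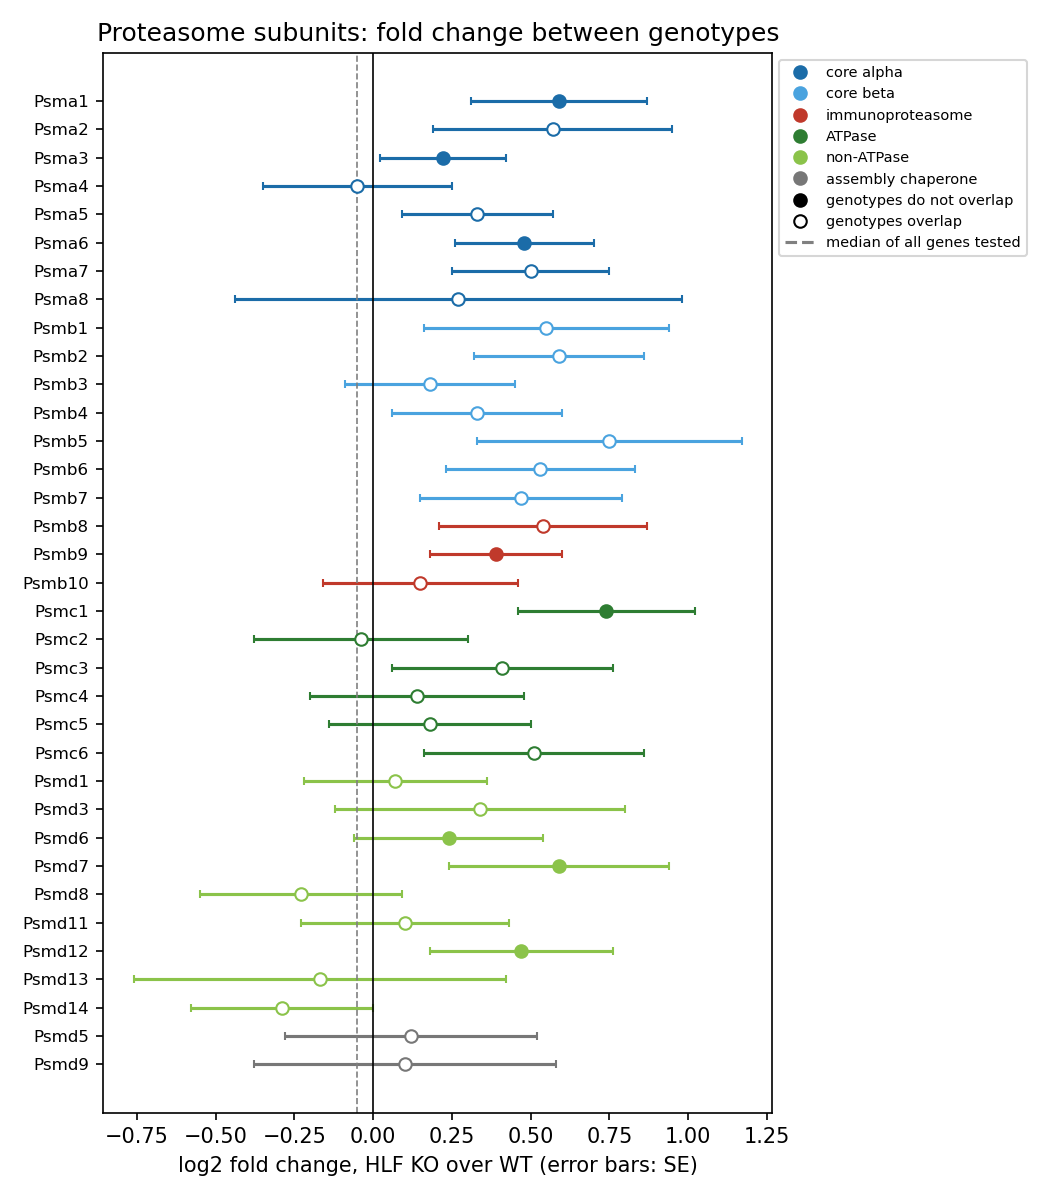
Log2 fold change of HLF KO over wild type for each of the 35 compared subunits (horizontal axis), with its standard error from edgeR, grouped by class; filled points are the 8 subunits whose genotypes did not overlap, and the dashed line is the median of all genes tested, -0.05. Points lie right of 0 for 30 subunits, and the error bars of many cross 0.

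The share of all counts that fell on the 39 genes was 0.472%, 0.480% and 0.559% in wild-type libraries 1, 2 and 3, and 0.627%, 0.702% and 0.644% in the knockout libraries. Each knockout library was above each wild-type library by this measure, which needs no scaling factor. The median log2 CPM of the 35 subunits was 6.85, 6.96 and 6.99 in wild type and 7.29, 7.39 and 7.33 in HLF KO. That of all genes tested lay between 5.07 and 5.13 in all 6 libraries. Wild-type library 1 was the lowest of the 6 for 16 of the 35 subunits and wild-type library 2 for 9. Over all genes, these 2 libraries were lowest for 29.5% and 21% and highest for 24.3% and 20.6%. Among subunits, they were highest for 5 and 0. Knockout libraries 2 and 3 were highest for 10 and 12 subunits, against 14.5% and 13.7% of all genes. The map of levels by library shows that the wild-type spread was wider, with a median SD of log2 CPM over subunits of 0.40 in wild type and 0.23 in HLF KO, and 0.75 and 0.46 over all genes.

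**Figure D2:**
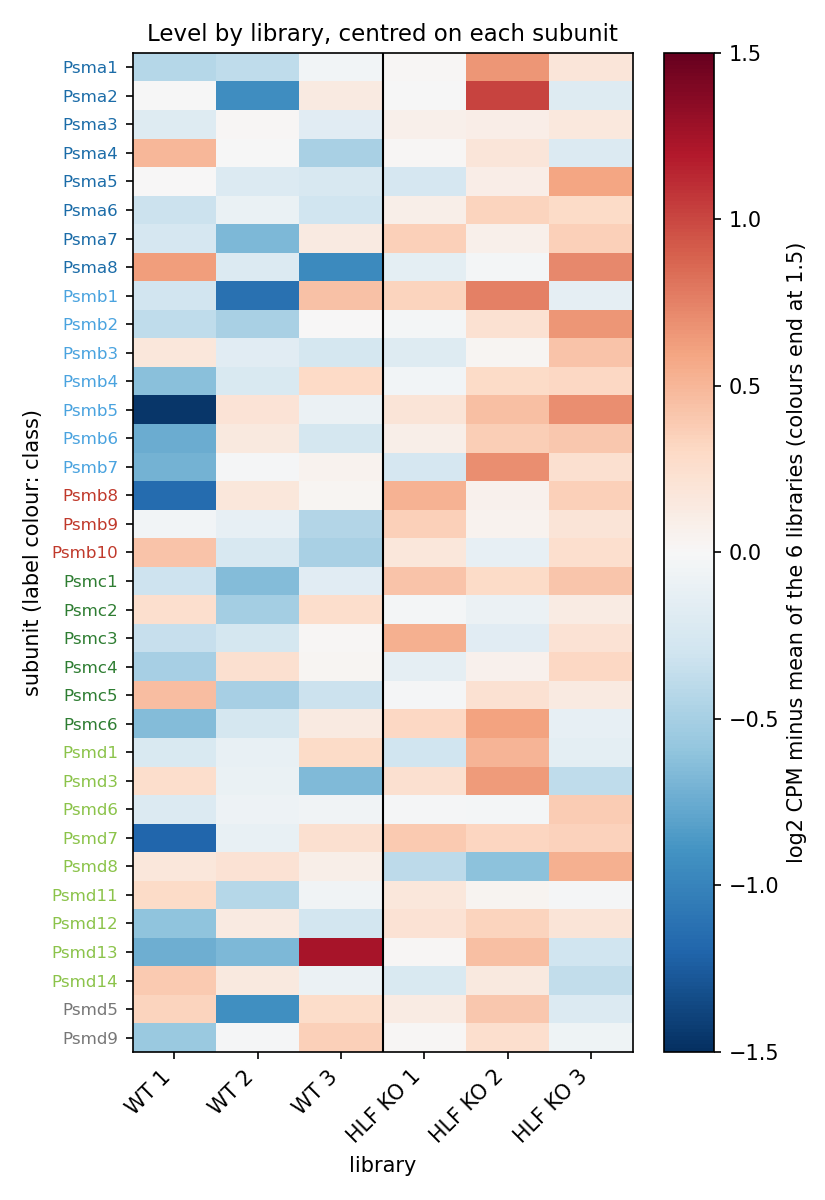
Each row is a subunit and each column a library; colour is log2 CPM minus the subunit's mean over the 6 libraries, and label colours give the class. Blue prevails in the 3 wild-type columns and red in the 3 HLF KO columns, with exceptions such as Psmd8, Psmd13 and Psmd14.

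The alpha subunits form the outer rings of the core, and 7 of 8 had positive values, with a median log2 fold change of 0.40. The genotypes did not overlap for 3 of them, all higher in HLF KO (37.5%, against 7.52% of all genes). Psma6 stood at 221.5, 258.8 and 224.5 CPM in wild type and at 294.5, 348.0 and 337.5 CPM in HLF KO. All knockout values lay above all wild-type values, at a log2 fold change of 0.48 (SE 0.22, unadjusted p = 0.0484 and adjusted p = 0.683 by edgeR). Psma1 stood at 123.7, 128.0 and 161.9 CPM in wild type and at 169.1, 263.2 and 188.4 CPM in HLF KO, a log2 fold change of 0.59 (SE 0.28). The gap between the genotypes was narrow, 161.9 against 169.1 CPM. Psma3, whose amino-terminal tail helps to close the gate of the core, stood at 297.1, 345.5 and 303.2 CPM and at 357.2, 365.4 and 380.2 CPM, a log2 fold change of 0.22 (SE 0.20). Here too the groups were apart, by a difference smaller than for Psma1 and Psma6.

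Psma5 was the alpha subunit with the highest counts. It stood at 403.8, 348.5 and 341.3 CPM in wild type and at 337.7, 429.3 and 603.6 CPM in HLF KO. Knockout library 1 was the lowest of all 6 and knockout library 3 the highest, so the genotypes overlapped (log2 fold change 0.33, SE 0.24, and 0.08 without knockout library 3). Psma7 and Psma2 stood at 0.50 (SE 0.25) and 0.57 (SE 0.38), and the Psma2 value was 0.12 without knockout library 2, which held 362.0 CPM against 156.5 to 179.0 CPM in the other knockout libraries. Psma4 was the negative one, at -0.05 (SE 0.30). Psma8, a relative of Psma7 known from the testis, had 9.0 to 28.7 CPM, and its log2 fold change of 0.27 had an SE of 0.71. The sources used here do not say how reads shared by such related genes were counted, and the Psma8 level is uncertain.

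All 7 constitutive beta subunits had positive values, with a median log2 fold change of 0.53 and a range of 0.18 to 0.75, though the genotypes overlapped for each of them. Psmb2, a subunit without a proteolytic site, stood at 171.5, 159.5 and 225.7 CPM in wild type and at 219.6, 263.2 and 354.1 CPM in HLF KO. Wild-type library 3 exceeded knockout library 1 (log2 fold change 0.59, SE 0.27, unadjusted p = 0.0481 and adjusted p = 0.683 by edgeR). Psmb5, which holds the chymotrypsin-like site, stood at 32.7, 104.0 and 84.5 CPM and at 103.3, 123.4 and 146.6 CPM. Its log2 fold change of 0.75 (SE 0.42) was the highest of all subunits, and it was 0.42 without wild-type library 1, whose value was far below the rest. Psmb6, with the caspase-like site, stood at 91.0, 168.6 and 126.8 CPM and at 162.2, 195.9 and 200.7 CPM (0.53, SE 0.30). Psmb7, with the trypsin-like site, stood at 97.8, 157.4 and 165.7 CPM and at 134.7, 258.3 and 188.6 CPM (0.47, SE 0.32, and 0.22 without knockout library 2). For these 3 catalytic subunits wild-type library 1 was the lowest of the 6. Psmb4, the beta subunit with the highest mean log2 CPM, stood at 0.33 (SE 0.27; 0.15 to 0.61 with 1 library left out), with wild-type library 3 at 306.3 CPM and knockout library 3 at 308.4 CPM. The others were Psmb1 at 0.55 (SE 0.39; 0.25 to 1.02 with 1 library left out) and Psmb3 at 0.18 (SE 0.27; 0.00 with knockout library 3 left out).

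The immunoproteasome subunits were abundant in both genotypes, and all 3 had positive values, with a median log2 fold change of 0.39. Psmb9 stood at 438.9, 414.9 and 331.6 CPM in wild type and at 577.9, 465.7 and 513.0 CPM in HLF KO. It was the 1 inducible subunit whose genotypes did not overlap, at a log2 fold change of 0.39 (SE 0.21, edgeR adjusted p = 0.705). Psmb8 stood at 90.6, 226.9 and 205.2 CPM and at 289.3, 209.9 and 258.6 CPM. Wild-type library 1 lay far below the rest, and without it the log2 fold change of 0.54 (SE 0.33) was 0.24. Psmb10 stood at 186.8, 117.7 and 98.8 CPM and at 155.2, 127.0 and 164.8 CPM. Its highest value was in wild-type library 1, and its log2 fold change of 0.15 (SE 0.31) was 0.48 without that library and -0.03 without wild-type library 3.

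Levels can be compared between genes per kilobase of transcript, here with the longest GENCODE transcript linked to each RefSeq accession. The order of genes and the class medians depend on these lengths. Those of Psma2 and Psma3 were 2911 and 2846 bases, against 914 to 1692 for the other alpha subunits. Psmb9 averaged 292.3 ± 41.6 CPM per kilobase in wild type (SD, n = 3) and 383.8 ± 41.7 in HLF KO, and over all libraries it was the highest of the 35 subunits (338.0). The next were Psma5 (331.5) and Psma7 (310.6). In wild type the mean of Psma5, 294.2 ± 27.6 (SD, n = 3), lay within the spread of Psmb9, so that order is not resolved. The lowest were Psma8 (11.1), Psmd9 (14.8), Psmd5 (20.2), Psmd13 (21.8) and Psmd3 (23.5). Class medians were 141 CPM per kilobase for alpha, 197 for constitutive beta, 131 for immunoproteasome, 61.1 for ATPase and 75.7 for non-ATPase subunits.

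At the RNA level, each inducible subunit was divided by the core subunit it replaces within each library. The Psmb9 to Psmb6 ratio, per kilobase, was 2.85, 1.45 and 1.54 in wild type and 2.10, 1.40 and 1.51 in HLF KO, above 1 in all 6 libraries. That of Psmb8 to Psmb5 was 1.53, 1.20 and 1.34 in wild type and 1.55, 0.94 and 0.97 in HLF KO. That of Psmb10 to Psmb7 was 1.69, 0.66 and 0.53 in wild type and 1.02, 0.43 and 0.77 in HLF KO. Wild-type library 1 was the highest for Psmb9 and Psmb10 ratios and close to the highest for Psmb8. The log2 ratio of counts differed between genotypes by -0.27 for Psmb8 to Psmb5 (1.29 ± 0.17 in wild type and 1.02 ± 0.40 in HLF KO, SD, n = 3 each, exact permutation p = 0.4). The difference was -0.17 for Psmb9 to Psmb6 (1.65 ± 0.54 and 1.48 ± 0.31, exact permutation p = 0.6) and -0.26 for Psmb10 to Psmb7 (-0.08 ± 0.89 and -0.34 ± 0.63, exact permutation p = 0.7). These tests were two-sided over 3 pairs, all with an adjusted p of 0.7, and 3 libraries against 3 allow no p below 0.1. Without wild-type library 1 the second and the third difference turned to 0.14 and 0.24. No difference in these RNA ratios between the genotypes was detectable with this spread. The exchange of the subunits in the proteasome itself was not measured.

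**Figure D3:**
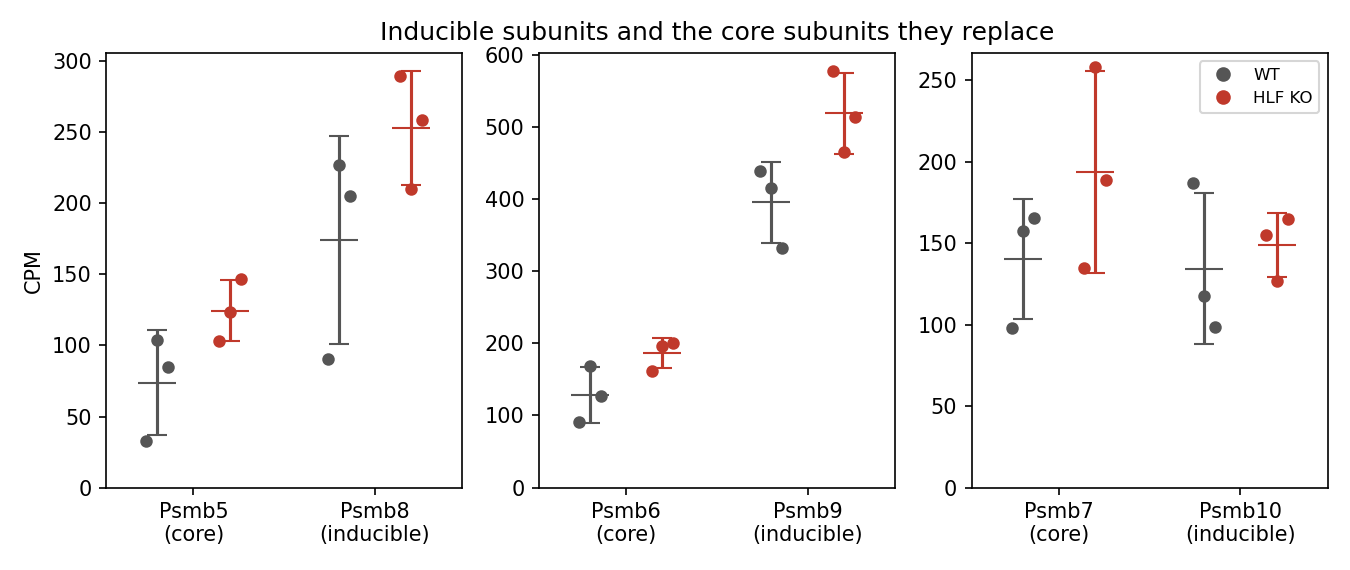
CPM (vertical axis, starting at 0, on a separate scale in each panel) of each core subunit and the inducible subunit that replaces it; points are libraries, and bars are mean and SD of 3 libraries per genotype. Psmb9 is the 1 of the 6 genes whose genotypes do not overlap, and 1 wild-type point, library 1, lies lowest for Psmb5, Psmb6, Psmb7 and Psmb8.

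In the base of the regulatory particle, 5 of 6 ATPase genes had positive values, with a median log2 fold change of 0.29. Psmc1, the ATPase that helps to open the core's gate, stood at 105.3, 82.8 and 115.8 CPM in wild type and at 174.5, 158.6 and 173.5 CPM in HLF KO. The lowest knockout value was well above the highest wild-type value. Its log2 fold change was 0.74 (SE 0.28), or 1.67-fold, the smallest p of all subunits (unadjusted p = 0.0226 and adjusted p = 0.625 by edgeR, adjusted p = 0.328 by DESeq2), and it lay between 0.62 and 0.85 with any 1 library left out. Psmc6 stood at 62.3, 81.6 and 107.7 CPM and at 121.2, 148.3 and 89.6 CPM (0.51, SE 0.35). Psmc3, the ATPase of lowest mean level, stood at 63.6, 67.4 and 81.7 CPM and at 117.0, 71.5 and 94.1 CPM (0.41, SE 0.35, and 0.23 without knockout library 1). Psmc5, that of the highest mean level, stood at 192.9, 98.5 and 111.8 CPM and at 137.8, 164.1 and 153.8 CPM. The genotypes of these 3 overlapped, and the Psmc5 value of 0.18 (SE 0.32) ran from 0.00 without wild-type library 2 to 0.55 without wild-type library 1. Psmc4 and Psmc2 stood at 0.14 (SE 0.34) and -0.04 (SE 0.34).

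The non-ATPase subunits were mixed, with 6 of 9 positive and a median log2 fold change of 0.10. The genotypes did not overlap for 3, all higher in HLF KO (33.3%, against 7.52% of all genes). Psmd7, which pairs with the deubiquitinase Psmd14 in the lid, stood at 58.9, 123.9 and 157.8 CPM in wild type and at 175.6, 167.8 and 169.7 CPM in HLF KO. Its knockout values were nearly alike and its wild-type values spread widely (0.59, SE 0.35, and 0.30 without wild-type library 1). Psmd12, a lid scaffold, stood at 92.7, 154.2 and 115.9 CPM and at 163.6, 176.7 and 161.1 CPM (0.47, SE 0.29). Psmd6, likewise of the lid, stood at 97.5, 106.1 and 107.9 CPM and at 111.3, 110.2 and 146.4 CPM (0.24, SE 0.30, and 0.10 without knockout library 3). The gap between genotypes was small for Psmd6, 107.9 against 110.2 CPM.

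Psmd14, which removes ubiquitin chains from the substrate, stood at 183.7, 154.3 and 131.3 CPM in wild type and at 119.7, 154.3 and 108.6 CPM in HLF KO. The genotypes overlapped, at the lowest log2 fold change of all subunits, -0.29 (SE 0.29). Psmd8 stood at 181.9, 188.9 and 172.5 CPM in wild type and at 123.2, 106.1 and 235.2 CPM in HLF KO. Knockout libraries 1 and 2 were below and library 3 above all wild-type values (-0.23, SE 0.32). Without knockout library 3 it stood at -0.65, and without knockout library 2 at 0.00. Psmd13 stood at 23.2, 24.1 and 90.3 CPM and at 39.0, 52.4 and 31.3 CPM. Wild-type library 3 decided its sign, since the log2 fold change of -0.17 (SE 0.59) was 0.79 without it. Psmd1, the large scaffold of the base and the non-ATPase gene of highest mean level, stood at 170.1, 184.9 and 243.3 CPM and at 162.7, 285.5 and 180.6 CPM (0.07, SE 0.29, and -0.20 without knockout library 2). Psmd3 and Psmd11 stood at 0.34 (SE 0.46) and 0.10 (SE 0.33). The chaperones Psmd5 and Psmd9, which help to assemble the ATPase ring, stood at 0.12 (SE 0.40) and 0.10 (SE 0.48), and both overlapped.

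Side by side, the 15 core genes had a median log2 fold change of 0.48 with 14 positive, and the 15 genes of the regulatory particle 0.18 with 11 positive. The difference between these classes was not tested. The summed CPM of the core was 2575.4, 2544.4 and 2899.8 in wild type and 3062.8, 3817.7 and 3751.9 in HLF KO. That of the regulatory particle was 1584.9, 1560.2 and 1767.5 and then 1786.6, 1955.8 and 1894.5. Both sums were higher in each knockout library than in any wild-type library, by a narrow margin for the regulatory particle. The core to regulatory particle ratio of these sums was 1.62, 1.63 and 1.64 in wild type and 1.71, 1.95 and 1.98 in HLF KO, so it too did not overlap. Psmd2 and Psmd4 are not in the sum in effect, as they had almost no counts. The summed CPM of the 3 inducible subunits was 716.3, 759.5 and 635.7 in wild type and 1022.4, 802.6 and 936.4 in HLF KO. Its ratio to the core was 0.28, 0.30 and 0.22 and then 0.33, 0.21 and 0.25, and the genotypes overlapped.

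**Figure D4:**
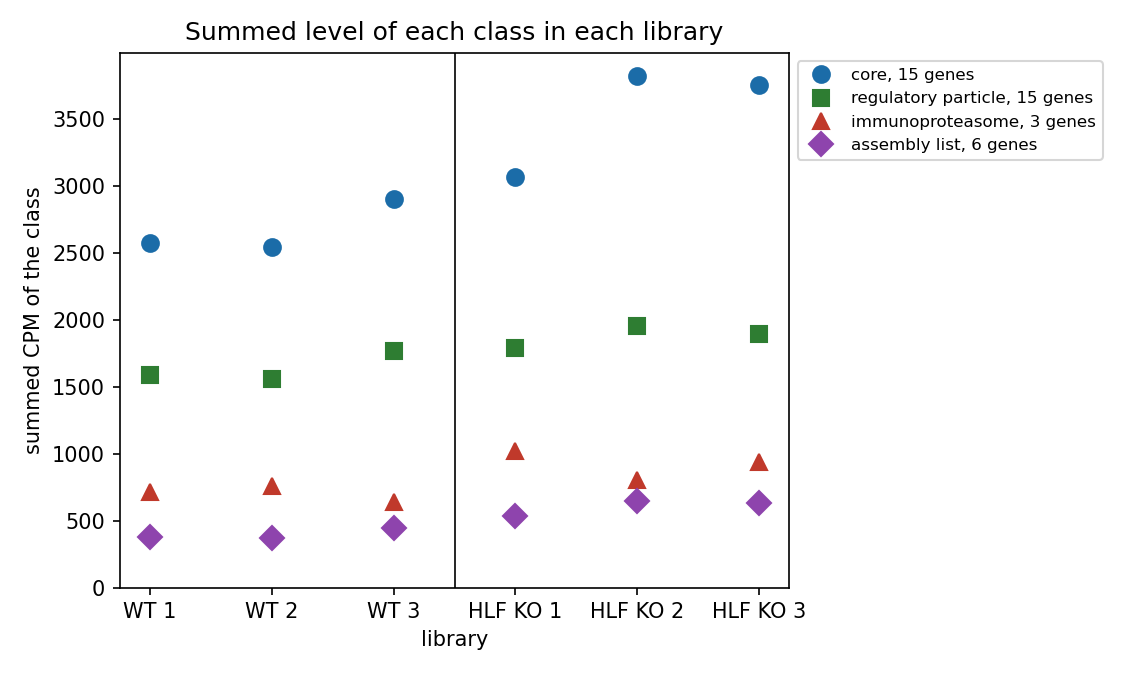
Summed CPM (vertical axis, starting at 0) of the core, regulatory particle and immunoproteasome subunits and of a separate list of 6 assembly genes (Pomp and Psmg2 among them, Psmd5 and Psmd9 not) in each library. For each of these 4 gene sets the 3 HLF KO libraries lie above the 3 wild-type libraries, with the narrowest gap for the regulatory particle (1767.5 against 1786.6).

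Among other genes of the pathway, grouped by function, none passed edgeR's test. Of the assembly genes, 5 of 7 were tested and 4 were positive, with a median log2 fold change of 0.60, and 2 had an unadjusted p under 0.05. Psmg2, a chaperone of the alpha ring, stood at 42.9, 33.5 and 41.7 CPM in wild type and at 74.8, 71.2 and 129.3 CPM in HLF KO. The genotypes were well apart, at a log2 fold change of 1.22 (SE 0.41, unadjusted p = 0.0111 and adjusted p = 0.544 by edgeR). Pomp, which matures the beta ring, stood at 121.8, 189.2 and 259.1 CPM and at 292.6, 319.5 and 315.3 CPM. It did not overlap either (0.70, SE 0.28, unadjusted p = 0.0296 and adjusted p = 0.637 by edgeR, and 0.48 to 0.99 without wild-type library 1 or 3). Psmg1 stood at 0.49 (SE 0.48, and 0.09 without knockout library 2).

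Of the 4 tested activators and inhibitors 1 was positive, with a median of -0.30. Psmf1, which encodes the proteasome inhibitor and assembly factor PI31, stood at 120.9, 122.1 and 99.6 CPM in wild type and at 60.1, 61.3 and 92.6 CPM in HLF KO. It was lower in each knockout library (-0.68, SE 0.34, edgeR adjusted p = 0.689). Psme4, an alternative cap, stood at -0.53 (SE 0.32; -0.20 with wild-type library 2 left out), and Psme3 at 0.16 (SE 0.29). Of the genes that control proteasome transcription 7 of 10 were tested and 1 was positive, with a median of -0.49. Nfe2l2 (NRF2, a factor that binds antioxidant elements) stood at 270.7, 366.8 and 285.1 CPM and at 248.8, 248.3 and 251.6 CPM, lower in each knockout library (-0.30, SE 0.22, edgeR adjusted p = 0.778, and -0.15 without wild-type library 2). Nfyb, a subunit of the CCAAT-binding factor NF-Y, stood at -0.86 (SE 0.42; -0.33 with wild-type library 1 left out). Nfe2l1, with 6 listed transcripts, Nfya, with 2, and Nfyc, with 3, had almost no counts and were not tested.

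Uba6, which encodes a ubiquitin-activating enzyme, stood at -0.25 (SE 0.35; -0.53 to -0.07 with 1 library left out). Of the other subunits and associated proteins 2 of 7 were positive (median -0.11), with Zfand5 at -0.27 (SE 0.25; -0.43 to -0.09 with 1 library left out), and of the shuttles and the segregase 4 of 6 (median 0.22), with Rad23b at 0.27 (SE 0.27). In these 2 groups no gene had an unadjusted p under 0.05.

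Genes that work with the immunoproteasome had values of both signs. Of 10 tested antigen presentation genes 4 were positive, with a median of -0.06. Nlrc5, the transactivator of MHC class I genes, stood at 205.3, 228.2 and 198.9 CPM in wild type and at 165.3, 101.9 and 126.7 CPM in HLF KO, below wild type in each library (-0.68, SE 0.27, unadjusted p = 0.0288 and adjusted p = 0.637 by edgeR). The class I gene H2-K1 stood at -0.26 (SE 0.21; -0.44 to -0.08 with 1 library left out). Tap1, which neighbours Psmb9 on chromosome 17, had 2 listed transcripts and 0 counts. Of 11 tested genes of interferon control and response 5 were positive, with a median of -0.07. Irf2 stood at 148.3, 148.4 and 139.1 CPM and at 97.8, 75.6 and 97.1 CPM, without overlap (-0.69, SE 0.29, unadjusted p = 0.0363 and adjusted p = 0.653 by edgeR). Isg15, an interferon-induced modifier, stood at 1.00 (SE 0.80, and 0.15 without knockout library 3).

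Marker lists of other cells and of cycling cells were summed in the same libraries. All 14 tested cycling genes had positive values, with a median of 0.68, and their summed CPM was 3671.2 to 4768.0 in wild type and 5238.3 to 7236.5 in HLF KO, with 0 of them at 0 in any library. Erythroid and megakaryocytic markers summed to 328.1 to 415.9 CPM in wild type and 732.4 to 993.0 in HLF KO (8 of 8 tested positive, Hba-a1 and Hbb-b1 at 0). T and NK markers summed to 130.4 to 260.6 and 351.8 to 633.9 CPM (5 of 8 positive, Cd8a at 0). Most of the knockout sums was 1 gene, Nkg7, at 71.4, 156.3 and 97.3 CPM in wild type and 254.0, 297.8 and 462.7 CPM in HLF KO. Cd3e, Cd4 and Gzmb were the 3 negative ones, and Cd4 was lower in each knockout library. Granulocyte and monocyte markers summed to 624.2 to 3378.3 and 323.1 to 489.8 CPM (0 of 9 positive, S100a9 at 0). Wild-type library 3 held the 3378.3 CPM, against 638.2 CPM in wild-type library 2. With 1 library left out, Mpo, Elane, Ctsg, Ms4a3 and Csf1r reached log2 fold changes of 1.03, 1.7, 6.86, 7.07 and 1.03. Prtn3, S100a8, Ly6c2 and Lyz2 stayed negative. B cell markers summed to 760.0 to 5609.0 and 139.8 to 300.1 CPM (0 of 6 positive), with the highest sum again in wild-type library 3. Macrophage and dendritic markers summed to 199.6 to 586.3 and 166.8 to 315.1 CPM (3 of 6 positive). The cycling, the erythroid and megakaryocytic, and the T and NK sums were higher in each knockout library than in any wild-type library. So was the summed level of the subunits. The part of these marker genes in the subunit values was not tested. Cd8a and S100a9 had 2 listed transcripts each, so their 0 counts are not read as low expression. Hba-a1 and Hbb-b1 had 1 each, but the treatment of reads shared by related genes is not given. Their 0 counts are not read as low expression either.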

How the data were processed

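RNA sequencing libraries of 3 wild-type and 3 HLF KO samples were analysed. The deposited files hold raw counts as whole numbers, 1 value for each RefSeq transcript. TopHat and the build mm9 are named in the submitters' processing notes. The sources used here do not give the counting tool, the strand setting or the treatment of shared reads. Of 30858 transcripts, 30363 were named from a RefSeq table of GRCm38.p6 and 179 from GENCODE M21 cross-references, 316 kept their accession, and counts were summed per gene. Coordinates are printed only for RefSeq promoters.

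Genes were tested with edgeR 4.0.16 (R 4.3.3): filterByExpr by genotype with a minimum count of 10 and a minimum total of 15, TMM factors, robust quasi-likelihood F test, adjusted p under 0.05. Standard errors come from the F statistic. Log2 CPM used a prior count of 2, and log2 ratios a pseudocount of 0.5. Alternatives used DESeq2 1.42.0 and limma-voom 3.58.1. The name rule uses no measured value, but it and the lists were chosen with earlier results of these data known. Named were Hlf, the inducible subunits and their partners, per class the 2 members of smallest p and those of the highest and lowest level, members without overlap or with an unadjusted p under 0.05, and up to 3 genes per pathway list. Further members' values, and those of some markers, were added after they were seen. Unmatched columns numbered 0. Some genes of the lists are not reported here.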

Additional observations from a re-analysis of the deposited data

How the results depend on the processing

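With 3 libraries per genotype the median SE of a subunit's log2 fold change was 0.32, which limits what can be detected. No subunit and no pathway gene was called under any alternative run, and the members' median log2 fold change stayed between 0.28 and 0.39 under all but 1, reaching 0.42 in the 4 libraries low in Xist, an alternative chosen after seeing the data. Positive subunits numbered 28 to 33 of 35, against 45.8% to 53.6% of all genes, and 27 of 31 with abundant genes only (mean log2 CPM of at least 6, chosen after seeing the data). The subunits without overlap and higher in the knockout numbered 10 with library totals alone (8.36% of all genes). They numbered 11 to 15 with 1 wild-type library left out (13.3% to 16.5% of all genes, 15 and 16.5% without wild-type library 3), and 17 in the libraries low in Xist (21.7% of all genes). Subunits without overlap and lower numbered 0 with all libraries (6.85% of all genes) and without wild-type library 1 (12.7%), 1 without wild-type library 2 (12.6%) or 3 (13.8%), and 2 in the libraries low in Xist (18.6%). These counts too were added after seeing the data, and fewer libraries overlap less often.

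Calls over all genes numbered 1 with all libraries, 120 with DESeq2, 9 with no filter on low counts, 2 with abundant genes only and 1 to 3 with 1 library left out (3 without wild-type library 1 and 2 without wild-type library 2). Deviations from the genotype means correlated at -0.01, -0.022 and 0.02 between libraries of the same number. Between libraries of different number they correlated at -0.039 to 0.047. No shared effect of the number was seen, but this cannot show whether the numbers mark pairs. With a replicate block 2 genes were called. Without the libraries rich in Xist the median of the regulatory particle was 0.34 and that of non-ATPase subunits 0.34, and without wild-type library 1 the former was 0.30.

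Among the subunits and the pathway genes of smallest p in each list, the log2 fold change turned sign with 1 library left out for Psma4 (-0.25 to 0.25), Psmc2 (-0.24 to 0.09), Psmc4 (-0.03 to 0.31), Psmd11 (-0.05 to 0.31), Psma8 (-0.05 to 0.78), Psmb10 (-0.03 to 0.48), Psmd1 (-0.20 to 0.24), Psmd5 (-0.17 to 0.34), Psmd9 (-0.10 to 0.34), Psmd13 (-0.47 to 0.79), Ecpas (-0.37 to 0.07), Psme3 (-0.01 to 0.42), Txnl1 (-0.47 to 0.24) and Ubqln4 (-0.59 to 0.12). Psmd13 also stood at 0.09 with limma-voom and 0.15 with the replicate block. The log2 ratio differences ranged from -0.50 to -0.14 for Psmb8 to Psmb5, -0.35 to 0.14 for Psmb9 to Psmb6 and -0.60 to 0.24 for Psmb10 to Psmb7 (0.08 without knockout library 2). The cause of these changes was not tested.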
